A study of Bos taurus with 24 samples.

Results

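The 12 liver libraries of the series were compared by light treatment: 6 came from cows under a phase-shifted light-dark cycle and 6 from control cows under a constant cycle, out of 24 libraries in all. They were chosen by their labels alone, as every library labelled liver, and the other 12 came from mammary gland. All animals were multiparous Holstein cows, a dairy breed, in late gestation. Each had been dried off, meaning that milking had stopped, 60 d before calving was due, and had entered a tie-stall barn at 35 d. Every cow, controls included, had 16 h of light a day, followed by 8 h of dark, from LED lamps giving 150 lx at eye level. Control cows (cows 19, 21, 23, 24, 25 and 26 of that treatment) kept one lighting schedule throughout. For phase shift cows (19, 22, 23, 24, 25 and 26 of that treatment, taken as different animals from the controls of the same number) the whole cycle was moved forward by 6 h every 3 d. The biopsy was taken 21 d before expected calving, after 2 weeks and at least 5 such shifts. Tarps divided the barn between the treatments, so the side of the barn and the treatment cannot be told apart. The sources used here do not give the hour of the biopsy.

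Liver cells carry a circadian clock, a feedback loop in which the proteins CLOCK and BMAL switch on the Period and Cryptochrome genes, whose products then hold CLOCK and BMAL back. Clock output and the timing of meals together give many liver transcripts a daily rhythm, among them genes of glucose, lipid, bile acid and heme metabolism. In the weeks before calving the cow's liver increases glucose synthesis and handles fatty acids released from body fat. A biopsy taken at a single time reads 1 moment of such a rhythm, so a shift in phase and a change in mean level cannot be told apart in these data. In whole tissue, fewer cells of a type and less RNA per cell cannot be told apart either. Genes are given by their Ensembl IDs, because the files do not pair the IDs with names and the reference table used here matched 0 of them. For that reason the core clock, the metabolic pathways and the markers of liver and other cell types could not be looked up, and the label liver was not checked against hepatocyte markers.

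The libraries held 7.68 to 26.9 M counts (M, mega; a count is a read or read pair assigned to a gene). Control libraries lay between 8.18 and 11.996 M and phase shift libraries between 7.68 and 26.9 M (exact two-sided permutation p = 0.260, Benjamini-Hochberg adjusted p = 0.693 over the 8 library measures compared). The number of genes with a read ran from 18117 to 19273. Genes at least 8-fold more abundant in control liver than in control mammary gland took 38.9 to 42.1% of the counts in 11 livers and 31.7% in phase shift cow 22. That library stood apart from all others, and the main results are given with and without it. Without it, the share of these liver-enriched genes averaged 41.0% in controls (SD 1.19, n = 6) and 40.3% in the 5 remaining phase shift cows (SD 0.617), a difference within the spread between cows (exact permutation p = 0.281, adjusted p = 0.534). These genes were picked by their level in the control libraries, which favours a high share there. The shares are of unscaled counts and fall when other genes take more. On scaled values, liver-enriched genes in phase shift cow 22 had a median log2 difference of -0.07 from the other livers, beside -0.03 for all genes tested.

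In liver, no gene differed between phase shift and control cows past the threshold of the main test. Of 13752 genes tested by edgeR's quasi-likelihood test, 0 had an adjusted p under 0.05 (0.0% called), the lowest being 0.469. Before adjustment, 813 genes, or 5.91% of those tested, had p under 0.05. Of these, 434 (3.16% of genes tested) had a higher and 379 (2.76%) a lower estimate under phase shifts. Without phase shift cow 22, 13905 genes were tested, edgeR again called 0, the lowest adjusted p was 0.332, and 793 genes (5.70%) had an unadjusted p under 0.05, 396 higher (2.85%) and 397 lower (2.86%). Counts at adjusted p under 0.05 were also 0 in limma-voom (744 genes at unadjusted p under 0.05), in limma-voom with sample quality weights (840) and in limma on the deposited regularized log values (765). DESeq2 called 16 genes, described further on.

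The libraries bounded many genes closely even though none passed. With all 12 libraries the log2 fold changes had a median standard error of 0.16. The 95% confidence interval stayed inside a 1.5-fold change, up or down, for 59.8% of genes and inside a 2-fold change for 84.2%. Leaving out phase shift cow 22, the median standard error was 0.15 and these shares were 66.3% and 88.7%. The standard error fell with abundance, while the share of intervals within 1.5-fold was greatest in the third of the 4 abundance groups. These groups hold 3438 genes each, by mean level. In the group of lowest level, up to 5.27 CPM (counts per mega counts of effective library size), the median standard error was 0.29 and the interval lay within 1.5-fold for 14.5% of genes. In the next groups the median standard errors were 0.17 and 0.12 and the shares 66.9% and 80.5%. In the group of highest level, above 41.6 CPM, the median standard error was 0.11 and the share was 77.3%. The share of genes at unadjusted p under 0.05 was 5.58, 4.89, 5.64 and 7.53% from the lowest to the highest group.

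The liver gene of smallest p was ENSBTAG00000002827, which was higher in every phase shift cow than in every control cow. Its level in control cows 19, 21, 23, 24, 25 and 26 was 77.7, 74.9, 87.2, 75.8, 77.7 and 77.4 CPM. In phase shift cows 19, 22, 23, 24, 25 and 26 it was 112, 108, 101, 92.1, 108 and 111 CPM. The groups were separated by the gap between control cow 23, the highest control, and phase shift cow 24, the lowest of the shifted cows. The means were 78.4 CPM in controls (SD 4.43, n = 6) and 105.6 CPM under phase shifts (SD 7.64, n = 6). The level was 1.35-fold higher (95% confidence interval 1.21 to 1.497), a log2 fold change of 0.43 (SE 0.071, edgeR adjusted p = 0.469). In the fit without phase shift cow 22 it was 0.42 (edgeR adjusted p = 0.332). The gene passed the threshold in DESeq2 (adjusted p = 1.51e-05 with all libraries and 5.58e-05 without phase shift cow 22), and its adjusted p ran up to 0.915 over the 22 alternatives run for single genes. In mammary gland its log2 fold change was -0.44 (SE 0.50), and control libraries there ran from 9.56 to 65.1 CPM.

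ENSBTAG00000044179 was the next of the genes with a higher estimate under phase shifts. Control cows, in the same order, had 59.1, 45.0, 72.8, 45.7, 56.0 and 56.4 CPM. Phase shift cows had 97.9, 72.7, 95.5, 89.4, 69.2 and 107 CPM. The groups overlapped, since phase shift cows 22 and 25 lay just under control cow 23, and 4 of 6 phase shift cows were above every control. The fold was 1.59 (95% confidence interval 1.30 to 1.95), a log2 fold change of 0.67 (SE 0.14, edgeR adjusted p = 0.734). When phase shift cow 22 was left out, the log2 fold change was 0.72 (edgeR adjusted p = 0.379). DESeq2 gave an adjusted p of 0.00681 with all libraries and 0.000319 without that cow, and the highest over the same alternatives was 0.915. Its mammary log2 fold change was 0.06 (SE 0.29).

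Among genes with a lower estimate, ENSBTAG00000044659 had the smallest p. Control cows had 18.5, 14.0, 9.17, 11.1, 9.85 and 8.57 CPM. Phase shift cows had 5.92, 7.32, 6.34, 5.26, 7.16 and 7.38 CPM. All 6 phase shift cows were below every control, by little in the case of control cow 26, and control cows 19 and 21 were the highest. The log2 fold change was -0.85 (SE 0.19, edgeR adjusted p = 0.734) and -0.87 without phase shift cow 22 (edgeR adjusted p = 0.602). DESeq2 gave this gene no adjusted p, and no alternative run for it called it. ENSBTAG00000009085 varied less between cows of a group. Control cows had 69.5, 80.6, 73.2, 81.1, 72.4 and 77.4 CPM, and phase shift cows had 51.4, 63.0, 55.3, 58.8, 60.9 and 67.5 CPM. The groups did not overlap, with phase shift cow 26 nearest to control cow 19. The log2 fold change was -0.35 (SE 0.079, edgeR adjusted p = 0.734) and -0.36 without phase shift cow 22 (edgeR adjusted p = 0.602). DESeq2 gave an adjusted p of 0.0357 with all libraries and 0.0199 without that cow, and the highest over the alternatives was 0.990.

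**Figure D1:**
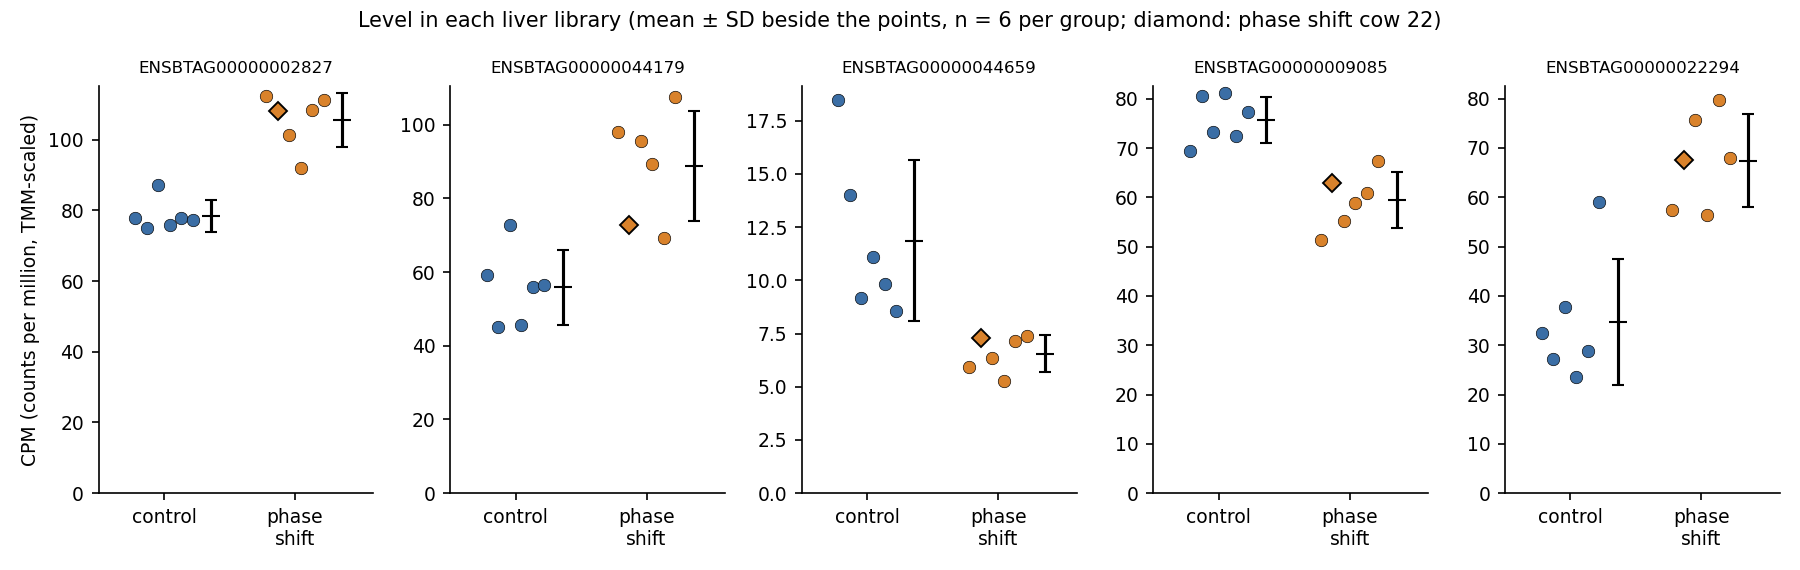
Level in CPM (counts per mega counts) of 5 liver genes in each of the 6 control and 6 phase shift libraries, each panel with its own axis from 0, with the mean ± SD beside the points and a diamond for phase shift cow 22. ENSBTAG00000002827, ENSBTAG00000044659 and ENSBTAG00000009085 show no overlap between the groups, while ENSBTAG00000044179 and ENSBTAG00000022294 overlap through single cows.

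Genes whose groups did not overlap were few. Of the 13752 genes tested, 18 (0.131%) were higher in every phase shift cow than in every control, and 16 (0.116%) were lower in every one, 34 in all (0.247%). With treatment labels assigned at random to the 12 cows, full separation in either direction has a probability of 0.00216 per gene. Leaving out phase shift cow 22 makes a group smaller by 1 and separation easier. Of the 462 assignments then possible, 1 gives full separation in each direction. The counts without that cow were 27 higher (0.194%) and 37 lower (0.266%) of 13905, 64 in all (0.46%).

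The size of the fold changes, more than the count of small p-values, turned on phase shift cow 22. With all 12 libraries 309 genes had an estimate over 2-fold higher and 39 over 2-fold lower under phase shifts. Without that cow the counts were 37 higher and 37 lower. At 1.5-fold, 698 higher and 240 lower became 183 and 264. Of the 348 genes over 2-fold with all 12 libraries, 236 were at least 8-fold raised in the library of cow 22, and 54 of the 348 remained over 2-fold without it. Genes at unadjusted p under 0.05 numbered 541 in both fits, 66.5% of the list with all libraries and 68.2% of the list without cow 22, with the same direction for 539. The fits share 11 of their 12 libraries.

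**Figure D2:**
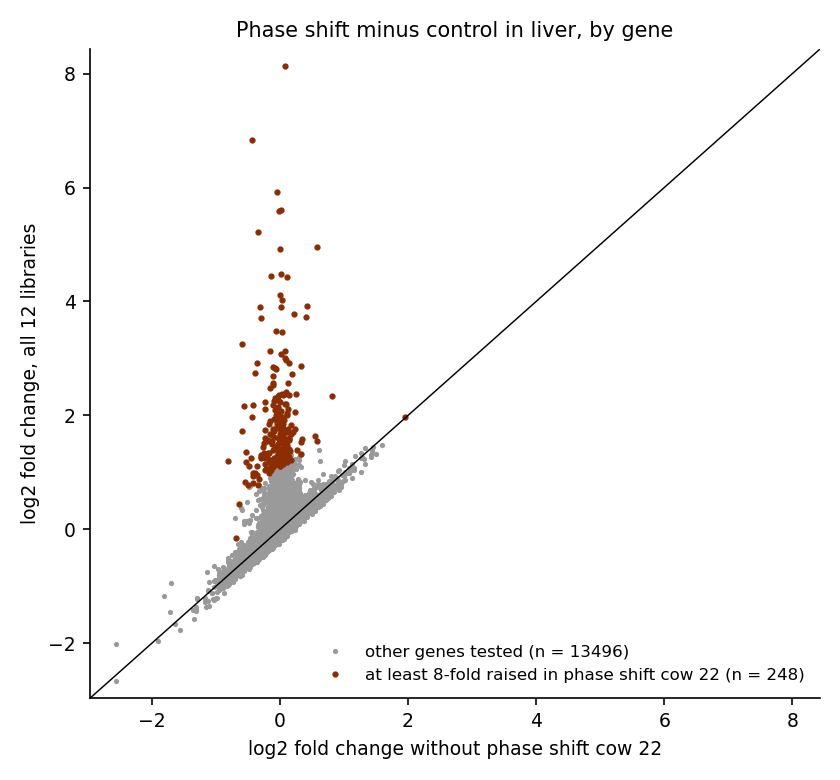
Log2 fold change of each liver gene, phase shift minus control, from all 12 libraries (vertical axis) against the same without phase shift cow 22 (horizontal axis), with the diagonal marking equality. The 248 genes at least 8-fold raised in that cow's library (dark points) rise steeply above the diagonal near 0 on the horizontal axis, while most other genes lie along it.

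The library of phase shift cow 22 carried a large set of transcripts at levels not seen in any other liver. Relative to the median of the other 11 livers, 248 of the genes tested were higher by 8-fold or more and 21 lower by 8-fold or more. In each other library, at most 9 genes were that far above. At 2-fold, 1348 genes were above and 438 below in cow 22, against 92 to 227 above and 175 to 300 below in the other livers. The 248 raised genes took 10.9% of the counts of cow 22 and 0.716 to 0.774% in the others, and the 10 most abundant genes took 16.1% against 19.8 to 22.5%. The raised genes were ordinary in level elsewhere, with a median of 14.3 CPM in the other livers beside 14.4 CPM for all genes tested, and reached a median of 246 CPM in cow 22. These genes were chosen for this excess, so the values are a description.

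**Figure D3:**
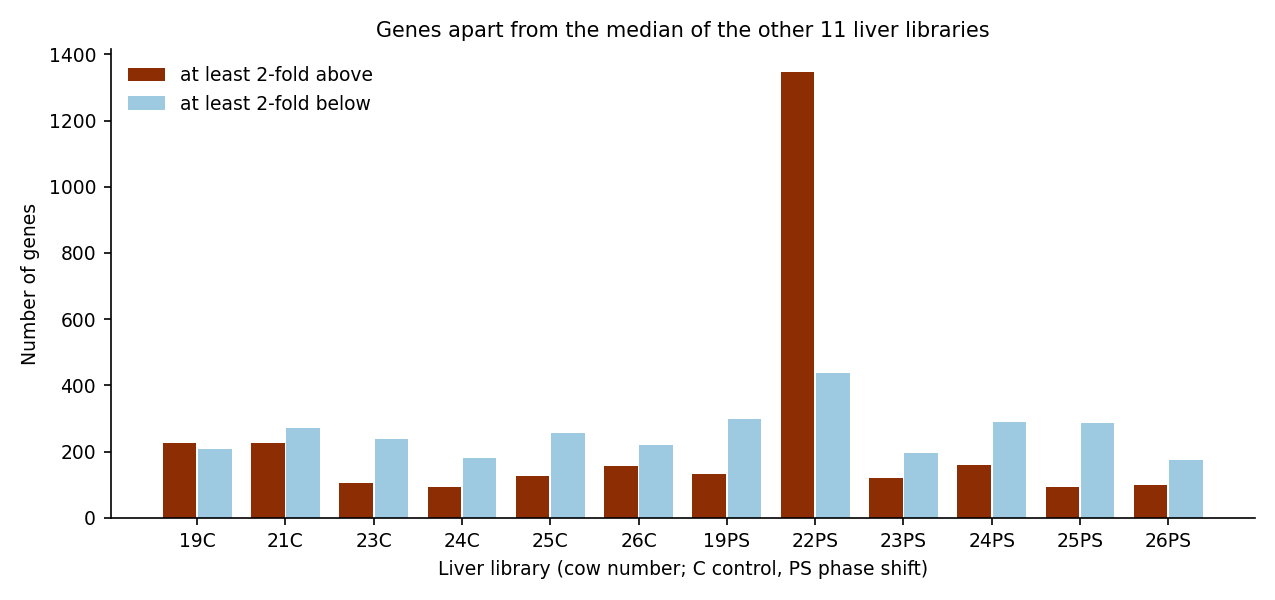
Number of genes 2-fold or more above (dark bars) and below (light bars) the median over the other 11 livers, for each of the 12 liver libraries. Phase shift cow 22 has 1348 genes above and 438 below, and no other library has more than 227 above or 300 below.

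ENSBTAG00000051079 showed the greatest excess, at 12209 CPM in phase shift cow 22 and 4.88 to 10.3 CPM in the other 11 livers. ENSBTAG00000023792 stood at 4163 CPM in cow 22 and 3.55 to 7.76 CPM in the others. Neither was raised in the mammary gland of cow 22, with 24.3 CPM beside 15.2 to 38.1 CPM in other cows for the first gene and 39.4 CPM beside 18.6 to 43.9 CPM for the second. Over the 248 genes, 3 were at least 2-fold above the mammary median in that cow's own mammary library. No share over all genes tested is given here for this measure, so the 3 cannot be called few or many. Among genes lower in cow 22, ENSBTAG00000013984 had 0 counts there, where 3 counts would be 0.406 CPM. One other liver, that of phase shift cow 19, was also at 0, and the remaining 10 had 3.20 to 17.1 CPM.

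The raised set did not overlap the liver-enriched genes. Of the 248, 0 were among the liver-enriched genes and 11 among the mammary-enriched genes. Of all 13752 genes tested, 637 were liver-enriched and 437 mammary-enriched. For 236 of them (95.2%) the median level was higher in mammary gland than in the other livers, which held for 75.7% of all genes tested. Liver-enriched genes in cow 22 had a median log2 difference of -0.07 from the other livers, beside -0.03 for all genes. Of the 637, 12 were at least 2-fold lower, beside 438 of the 13752 genes tested. With all 12 libraries the median log2 fold change of the 248 genes, phase shift minus control, was 1.54, and without cow 22 it was -0.01. In the other 11 livers 113 of the 248 had a higher estimate under phase shifts, and 18 (7.26%, beside 5.70% of all genes tested in that fit) had an unadjusted edgeR p under 0.05. Whether other cell types, tissue sampled with the liver, RNA quality or the state of the animal had a part in this library was not tested.

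With phase shift cow 22 left out, the main axes of variation did not separate the treatments. The first 3 principal components held 15.3, 11.9 and 11.1% of the variance, and exact permutation of the treatment labels over 462 assignments gave p = 0.377, 0.268 and 0.134 (adjusted p = 0.377 for each). Control cows 19 and 21 lay together at 30.7 and 32.3 on the first component, where the other 9 ran from -16.7 to 5.84. Phase shift cow 24 lay alone at 41.3 on the second component, and phase shift cow 19 at 37.3 on the third.

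**Figure D4:**
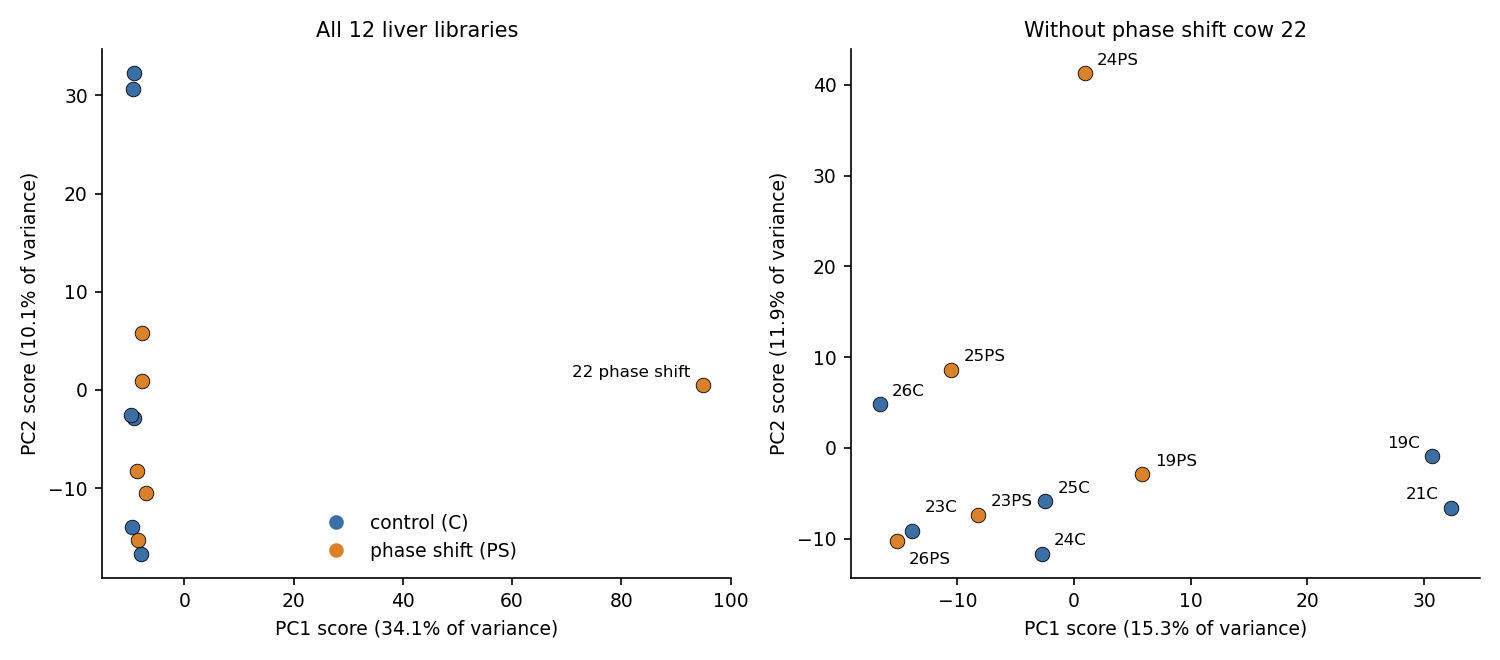
Principal component scores of the liver libraries on log2 CPM, with all 12 libraries on the left and without phase shift cow 22 on the right, control cows in blue and phase shift cows in orange. Phase shift cow 22 sits at 94.9 on the first component while the others lie below 0, and in the right panel control and phase shift cows are intermixed, with control cows 19 and 21 and phase shift cow 24 at the edges.

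With all 12 libraries, DESeq2 called 16 genes at an adjusted p under 0.05, 14 higher and 2 lower, which is 0.411% of the 3890 genes to which it gave an adjusted p. Their log2 fold changes were between 0.33 and 1.26 in size, and their mean levels ran from 32.9 to 227 CPM with a median of 74.8 CPM. DESeq2 gives no adjusted p to genes of low mean count. The lower end of these levels therefore depends on that filter, and genes of lower level could not be called. The groups did not overlap for 3 of the 16, beside 0.247% of all genes tested in edgeR. All 16 had an unadjusted edgeR p under 0.05 (5.91% of all genes did), with edgeR adjusted p from 0.469 to 0.734. DESeq2 chose the 16 on the same liver counts, so these liver values are a description. In mammary gland 0 of the 16 had an unadjusted edgeR p under 0.05 (4.75% of all genes tested there did), and 3 of 16 had the same sign. How often the sign was the same over all genes tested is not given here, so the 3 cannot be called few or many. None of the 16 was among the 248 genes raised in phase shift cow 22, 0 were liver-enriched and 1 was mammary-enriched. By default DESeq2 gives no p to a gene in which 1 library is an outlier. Genes raised in that cow alone could therefore hardly be called with all 12 libraries. Without phase shift cow 22 DESeq2 called 30 genes, 18 higher and 12 lower (0.657% of 4566), and 15 were called both times, 15 of 16 and 15 of 30. Of the 30, 3 were among the 248 genes, 2 were liver-enriched and 1 was mammary-enriched. Of the 13752 genes tested in edgeR with all 12 libraries, 248 were raised, 637 liver-enriched and 437 mammary-enriched.

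The DESeq2 count depended on which cow was left out. Among controls, it was 1 with cow 21 or cow 24 left out, 2 with cow 25, 4 with cow 19, 17 with cow 26 and 35 with cow 23. Among phase shift cows, it was 4 with cow 19 left out, 6 with cow 26, 10 with cow 23, 22 with cow 25, 24 with cow 24 and 30 with cow 22. A single gene, ENSBTAG00000002827, was called in each of the 12. In edgeR, leaving out a library gave 0 calls except for 1 without control cow 26. That gene, ENSBTAG00000022294, was chosen after its values were seen. It had 32.4, 27.2, 37.8, 23.5, 28.8 and 59.0 CPM in control cows, in the order given above, and 57.4, 67.6, 75.7, 56.4, 79.7 and 67.9 CPM in phase shift cows. Control cow 26, the last of the controls, lay among the phase shift cows and the other 5 controls below all of them. The log2 fold change was 0.96 with all libraries (SE 0.20, edgeR adjusted p = 0.734) and 1.17 without control cow 26 (SE 0.13, edgeR adjusted p = 0.0143), and DESeq2 gave an adjusted p of 0.00612 with all libraries.

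**Figure D5:**
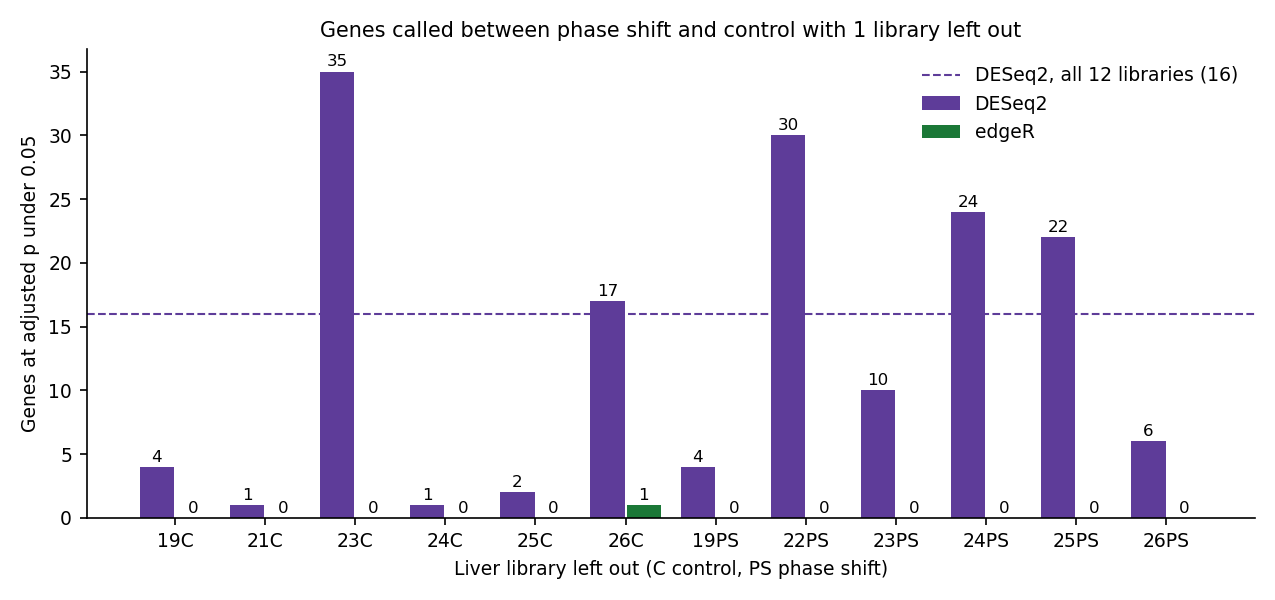
Number of liver genes at adjusted p under 0.05 in DESeq2 (purple bars) and edgeR (green bars) when the library named on the horizontal axis is left out, with the DESeq2 count of 16 from all 12 libraries as a dashed line. DESeq2 counts run from 1 to 35, and edgeR calls 1 gene without control cow 26 and 0 otherwise.

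Genes picked in some of the livers were compared with a liver that had no part in picking them. For each cow, genes at unadjusted edgeR p under 0.05 were taken from a fit without that cow and without phase shift cow 22, and it was counted how often the cow lay on its own treatment's side of the midpoint between the group means. The share ran from 43.8% in phase shift cow 24 to 65.1% in control cow 21, with a median of 53.2%. It exceeded 50% in 7 of 12 cows, 4 controls and 3 phase shift cows. The cows share libraries in these fits and the genes vary together, so the shares are a description.

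In a test made gene by gene, phase shift cows did not vary among themselves detectably more or less than controls. For each gene, the mean distance of cows from their group's median log2 CPM was compared by exact two-sided permutation over all assignments of the cows. Unadjusted p was under 0.05 for 642 genes (4.67%), of which 355 (2.58%) varied more and 287 (2.09%) less among phase shift cows, and the lowest adjusted p was 0.425, so 0 passed. With distances from the group mean in place of the median, the counts were 1761 genes, 1285 more and 476 less variable, with a lowest adjusted p of 0.0779. The smallest p these permutations can give, 0.00216, was reached by 70 genes with distances from the median. With 13752 genes tested, far more genes would have to reach it before any adjusted p fell under 0.05. The absence of genes that passed is therefore weak evidence of equal spread. The median SD of log2 CPM over genes was 0.23 in controls (n = 6) and 0.27 in phase shift cows (n = 6). It was 0.22 in phase shift cows without cow 22 (n = 5), and the share of genes more variable than in controls then fell below 50%, from 57.2 to 45.9%.

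Genes enriched in a tissue gave medians near 0. The lists were picked by level in the control libraries, which are also the group compared here. That choice favours lower estimates under phase shifts for liver-enriched genes and higher estimates for mammary-enriched genes. The medians and shares in this paragraph are therefore a description. The 637 liver-enriched genes had a median log2 fold change of -0.02, beside 0.01 for all genes tested, and 49 (7.69%, beside 5.91% of all genes) had an unadjusted edgeR p under 0.05, 27 higher and 22 lower. In the fit without phase shift cow 22 their median was -0.004 and 52 (8.16%, beside 5.70% of all genes in that fit) did. For the 437 mammary-enriched genes the median was -0.02, and 41 (9.38%) had an unadjusted p under 0.05, 11 higher and 30 lower. Without phase shift cow 22, 460 such genes were tested and 37 (8.04%, beside 5.70%) did, 15 higher and 22 lower. No gene of either group was called by edgeR.

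The liver response was not detectably different from the mammary response for any gene in edgeR. The tissues did not come from quite the same animals, since phase shift cow 25 is labelled in liver alone and phase shift cow 21 in mammary gland alone, which makes more phase shift cows than the 6 in the series description. In a fit to all 24 libraries, in which liver and mammary libraries from the same cow count as independent, 0 of 16656 genes (0.0%) passed for the difference. The lowest adjusted p was 0.737, and 1111 genes (6.67%) had an unadjusted p under 0.05. DESeq2 called 1 gene and limma-voom 0, with 1171 and 616 at unadjusted p under 0.05. The gene called by DESeq2, ENSBTAG00000017335, was chosen after its values were seen. Liver gave it a log2 fold change of -0.05 (SE 0.064) and mammary gland 0.66 (SE 0.18). The difference in DESeq2 was -0.73 (SE 0.15, DESeq2 adjusted p = 0.0189, edgeR adjusted p = 0.737). The median standard error of the difference was 0.35, and its 95% confidence interval lay within 2-fold for 49.1% of genes. The genes that follow were picked for their small p in liver, which favours a large difference from mammary gland. For ENSBTAG00000002827 the log2 fold change in liver minus that in mammary was 0.87 (SE 0.53, edgeR adjusted p = 0.779), and for ENSBTAG00000044179 it was 0.60 (SE 0.32, edgeR adjusted p = 0.749). For ENSBTAG00000044659 it was -0.71 (SE 0.42, edgeR adjusted p = 0.779), and for ENSBTAG00000009085 it was -0.42 (SE 0.26, edgeR adjusted p = 0.781). Of 758 genes at unadjusted p under 0.05 in liver and tested in mammary, 48 (6.33%) were so in mammary as well, where 4.75% of all genes tested were.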

How the data were processed

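Ribosomal RNA was depleted from total RNA of each biopsy, and paired reads were sequenced, per the labels' protocols. Per the submitters' processing notes, the authors used Trimmomatic 0.36, STAR 2.5.2b, featureCounts from Subread 1.5.2 and DESeq2 with the build ARS-UCD1.2. For the annotation release and the strand setting, nothing is given in the sources used here. Reads of overlapping, antisense or near-identical genes therefore cannot be told apart. The authors deposited whole-number read counts for 27607 gene IDs, 22503 of them with a liver read, and regularized log values on the log2 scale, used here for alternatives only.

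The treatments were tested in edgeR 4.0.16 (R 4.3.3) by the quasi-likelihood F test with robust dispersion, TMM scaling, filterByExpr (minimum count 10, minimum total 15) and Benjamini-Hochberg adjustment at 0.05. Log2 CPM used a prior count of 2. Alternatives used DESeq2 1.42.0 and limma 3.58.1. Replicates are separate cows. Cows were blocked by lactation number and earlier yield, but no label gives the block. Liver-enriched and mammary-enriched genes differ at least 8-fold between the control medians of the tissues (CPM plus 1).

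Named genes are the 2 of smallest edgeR p in each direction and, for phase shift cow 22, the genes of greatest excess and deficit. Members, lists and alternatives were chosen with earlier results of these data known. The left-out-cow description, the gene split between cows and DESeq2 with each cow left out were chosen after seeing the data. The 19 pathway and 15 marker lists that had been set could not be used, as 0 IDs matched among the 37063 genes of the RefSeq table (ARS-UCD2.0).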

Additional observations from a re-analysis of the deposited data

Results flagged for a closer look

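Values are given here for cows whose distance from the next cow of the group, as a share of the group's range, exceeded Dixon's 95% critical value for 6 cows. Chance flags about 1 in 20 groups, or 1.6 of the 32 examined, and 10 values were flagged. Total counts were 11.996 M in control cow 24, beside at most 8.69 M in other controls, and 26.9 M in phase shift cow 26, beside at most 13.0 M in other phase shift cows. Phase shift cow 22 was flagged in 6 measures that are not independent of each other. These were a score of 94.9 on the first principal component, a median rank correlation of 0.928 with the other livers (0.973 in the next cow) and a share of 31.7% for liver-enriched genes. The others were 248 genes at least 8-fold above the other livers, 1348 genes at least 2-fold above, and 10.9% of counts in the genes 8-fold above. Control cow 26 was flagged at -7.91 on the first component, where the next control stood at -9.14. ENSBTAG00000002827 was flagged for control cow 23, at 87.2 CPM beside at most 77.7 CPM in the other controls. The causes were not tested.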

How the results depend on the processing

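For phase shift against control in liver, the count of 0 genes was 16 in DESeq2 and 2 with the cow number as a replicate block, and was 0 to 1 in edgeR without each replicate in turn and 1 to 35 in DESeq2 without each (controls 19, 21, 23, 24, 25 and 26 left out gave 4, 1, 35, 1, 2 and 17, and phase shift cows 19, 22, 23, 24, 25 and 26 gave 4, 30, 10, 24, 22 and 6). The block used the 10 libraries whose number occurs in both treatments, and the same 10 gave 0 without it; the 2 genes were ENSBTAG00000001592 and ENSBTAG00000015980 (edgeR adjusted p = 0.0289 for each). Same-numbered cows correlated at -0.085 to 0.101, over 0.1 in 1 of 5 pairs, so the numbers were not taken to pair cows. As a hint from the data toward pairing, 5 of the 10 libraries correlated best with their own number. The other scalings, filters and limma fits gave 0. Genes at unadjusted p under 0.05 numbered 639 to 946 without each replicate and 1301 with no filter on low counts. Liver against mammary response gave 1 gene in DESeq2 and 0 in the other alternatives. The spread between cows gave 1761 genes (1285 wider under phase shifts) with distances from the group mean, lowest adjusted p 0.0779, and 321 to 394 without each replicate; with 5 cows the middle cow has distance 0, so unequal groups are not comparable. The 4 named genes kept their direction in each alternative run for them, and 3 of them passed in DESeq2 alone, at the adjusted p given with each gene. The 4 planned relations between clock genes were not run, because no IDs matched names. Changes under 1.5-fold were within the confidence intervals of many genes at this depth and number of cows. The intervals rest on the spread between these cows.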

Other observations

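One gene split the livers into groups that were not the treatments. ENSBTAG00000021565 was the only gene of the 13752 tested with a step of at least 8-fold between the ordered livers (on CPM plus 0.5) that had at least 2 cows on each side and less than 1 CPM below the step. It had 0 counts in control cows 19, 24 and 25 and phase shift cows 19, 22 and 25. It had 7.74 to 27.6 CPM in the other 3 control and 3 phase shift cows. The mammary libraries of the same cows were split in the same way, at 0 to 1.35 CPM in the 5 cows with no liver count and a mammary library, and 21.8 to 44.0 CPM in the 6 cows with liver counts. Its log2 fold change between treatments was 1.0007 with all 12 livers (edgeR adjusted p = 0.890) and 1.27 without phase shift cow 22, from an even split of the cows in the first case. The gene was found by searching these data, and whether the difference lies in the genome of the cows, in the annotation or in the mapping of reads was not tested.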
